A study of Mus musculus with 12 samples.

Results

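The HoxA cluster is the run of 10 Hox genes from Hoxa2 to Hoxa13 analysed here, and its transcripts were followed in mouse embryonic fibroblasts (MEFs), mesenchymal cells cultured from dissociated embryos. The members were all non-control probes whose gene name in the scanner files was Hoxa2, Hoxa3, Hoxa4, Hoxa5, Hoxa6, Hoxa7, Hoxa9, Hoxa10, Hoxa11 or Hoxa13. They came to 13 of the 41174 distinct probes of a one-colour Agilent array: 7 genes had 1 probe, and Hoxa3, Hoxa4 and Hoxa13 had 2 each, called (a) and (b) in their order along the cluster. All 13 passed the filter on dim probes. By the scanner's call, 11 of them were well above background on every array and Hoxa13 (a) on 11 arrays while Hoxa13 (b) passed through the 6 GR-C3 arrays alone.

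Wild-type (WT) MEFs were compared with MEFs homozygous for the GR-C3 knockin of Nr3c1, the glucocorticoid receptor gene, in which the start codon of the GR-C3 isoform is kept and the start codons of the other translational isoforms are changed from ATG to ATC. Cells of each genotype were kept with vehicle or with dexamethasone (Dex), a synthetic glucocorticoid, at 100 nM for 6 hours. This gave 4 groups of 3 arrays: WT vehicle and WT Dex for one genotype, GR-C3 vehicle with GR-C3 Dex for the other. Both genotypes came from E12.5 embryos on a C57Bl/6 background. The knockin line went back to 1 injected embryonic stem cell clone, its selection cassette had been deleted with Flp, and the labels do not give the number or sex of the embryos behind each genotype. The comparisons ask how the cluster differs between genotypes under each treatment, and how it responds to Dex in each genotype.

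Hox genes encode homeodomain transcription factors that give cells their position along the body axis and, for the genes at the posterior end of a cluster, along the limb. They lie in the order in which they are used: the genes at one end act in the hindbrain and neck and those at the other in the lumbar region, the limb and the digits, and fibroblasts in culture keep much of the Hox pattern of the place they came from. Hox proteins bind DNA with TALE cofactors of the Pbx, Meis and Prep families, Polycomb proteins hold unused Hox genes silent, trithorax proteins keep used ones active, and retinoic acid activates the anterior genes.

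The 13 probes covered chr6:52125851-52222444 of mouse build mm7, on the minus strand, a stretch of 96594 bases. Sequences of 3 probes, of Hoxa4 (b), Hoxa6 and Hoxa13 (b), are shown, because they lie in coding sequence shared by Hox proteins and gave dim or scattered signals. Capitals mark the bases that code for a conserved stretch: the hexapeptide that contacts Pbx proteins in Hoxa6, and the first helix of the homeodomain in Hoxa4 (b) and Hoxa13 (b).
Hoxa4 (b), A_52_P638382, chr6:52154062-52154121: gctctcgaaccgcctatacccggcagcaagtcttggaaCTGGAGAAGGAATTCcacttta
Hoxa6, A_51_P360586, chr6:52171564-52171623: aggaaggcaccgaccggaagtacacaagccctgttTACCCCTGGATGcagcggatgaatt
Hoxa13 (b), A_52_P71789, chr6:52222385-52222444: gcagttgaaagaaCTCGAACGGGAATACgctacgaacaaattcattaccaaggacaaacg
The Hoxa9 probe, not shown, also lies in such coding sequence, with 18 bases of the third helix of the homeodomain. Hybridisation of paralogous transcripts to the conserved bases of any of these probes was not tested. Exon and UTR positions of the other probes were not used here.

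A level below is the processed signal on a log2 scale, relative to the 75th percentile of the same array, so a difference of 1 is 2-fold, and levels of different probes are not set against each other. Differences were fitted with limma and are given ± their standard error, with p-values adjusted by Benjamini-Hochberg over 30932 probes and called under 0.05. A genotype difference is GR-C3 minus WT. The averaged difference is its mean over vehicle and Dex.

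Properties of the samples bear on all that follows. WT vehicle replicate 1, as labelled, was unlike its group: Fkbp5, a classical glucocorticoid-induced gene, lay at 1.51 on it, against -2.64 and -2.74 on the other WT vehicle arrays and 1.89 to 2.15 on the WT Dex arrays. Results are therefore also given on the 11 arrays without it. The genotypes also differed in sex-linked transcripts: Xist, the RNA that coats the inactive X chromosome, lay at 0.98 to 1.44 on the 6 GR-C3 arrays by probe A_51_P145453, which was not well above background on any WT array. Another of its probes, A_52_P300376, was well above background on all 6 WT arrays too, at -4.57 to -4.06, against -2.87 to -2.53 in GR-C3. Y-linked Ddx3y was at least 287-fold lower in GR-C3 under vehicle (259 without WT vehicle replicate 1) and at least 215-fold lower under Dex. Another Y-linked gene, Kdm5d, was lower but well above background on all 6 GR-C3 arrays, at -5.69 to -4.81, against -1.97 to -1.23 in WT. Y-linked Eif2s3y was well above background on GR-C3 Dex replicate 1, at -6.06, and on no other GR-C3 array. The effect of the knockin therefore cannot be told apart from the sex and source of the embryos. The 10 fibroblast markers were well above background on all 12 arrays, with a summed linear signal, relative to the 75th percentile, of 997 to 1410 in WT and 1110 to 1380 in GR-C3. On the same scale, lists higher in GR-C3 were limb bud markers (3.98 to 4.66 in WT, 10.7 to 12.2 in GR-C3), neural and Schwann cell markers (3.25 to 4.73, 7.46 to 9.23), skeletal muscle markers (0.617 to 0.796, 2.86 to 3.48, Myf5 well above background on no array) and endothelial markers (0.561 to 0.787, 1.73 to 2.3, Pecam1, Cdh5 and Tie1 on none). Chondrocyte markers (43.5 to 56.6, 5.81 to 6.23) and haematopoietic markers (6.24 to 8.2, 4.73 to 6.14) were lower, and epithelial markers overlapped (0.297 to 0.489, 0.322 to 0.414, Cdh1 and Esrp1 on none). A sum can rest on 1 gene. By the averaged difference, Emcn rose by 1.92, while the other endothelial markers tested, Tek (0.02) and Vwf (0.24), were not called. Des rose by 3.42, other muscle markers by 0.46 to 0.74, and Myog (0.23) was not called. Of the haematopoietic markers, Ptprc (-1.15) and Lyz2 (-0.42) were lower, and Cd68, Adgre1 and Csf1r were not called. Although the fibroblast sums overlapped, Dcn (-0.91) and Col3a1 (-0.43) were lower, and the other fibroblast markers were not called. In bulk RNA, fewer cells of a type and less RNA per cell cannot be told apart, and the part of these markers in the Hox results was not tested.

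GR-C3 MEFs had more RNA from most of the cluster and less from its anterior end. Averaged over treatments, 11 of the 13 probes were higher in GR-C3 and 1, Hoxa2, was lower, where 41.5% of all probes were called, 25.1% higher and 16.4% lower. Of the 12, 8 differed at least 2-fold, 7 upward and Hoxa2 downward, while at least 2-fold rises and falls made up 2.56% and 2.94% of all probes. The median averaged difference of the 13 probes was 1.29, against 0.10 over all probes. The counts and the median over 13 probes include Hoxa13 (b), which passed the filter through the GR-C3 arrays alone, so the filter favoured its rise. By the brighter probe of each gene, which leaves it out, 8 of the 10 genes were higher on average and 1 lower. Under vehicle alone 9 probes were higher and 1 lower (23.3% of all probes called, 13.1% higher and 10.3% lower). Under Dex alone 11 were higher and 1 lower (27.7% called, 16.4% higher and 11.3% lower). After quantile normalization in place of the percentile, 48.3% and not 59.0% of the calls of all probes under Dex were higher. With normexp background correction, 3, 2 and 4 HoxA probes were called under vehicle, under Dex and averaged, and under Dex Hoxa3 (a), Hoxa4, Hoxa6 and Hoxa13 pointed downward; the local backgrounds this uses reached 65361 on WT Dex replicate 3, against array medians of 49.5 to 61. The call of Hoxa2, Hoxa7, Hoxa10 and Hoxa11 held there in the averaged comparison. On 11 arrays the counts stayed at 10, 12 and 12 for vehicle, Dex and the average, with 26.8%, 38.6% and 47.3% of all probes called. For 10 of the 13 probes, no GR-C3 array overlapped any WT array (21.5% of all probes); compared within a treatment, 42.9% of all probes had separate groups under vehicle and 48.3% under Dex.

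**Figure D1:**
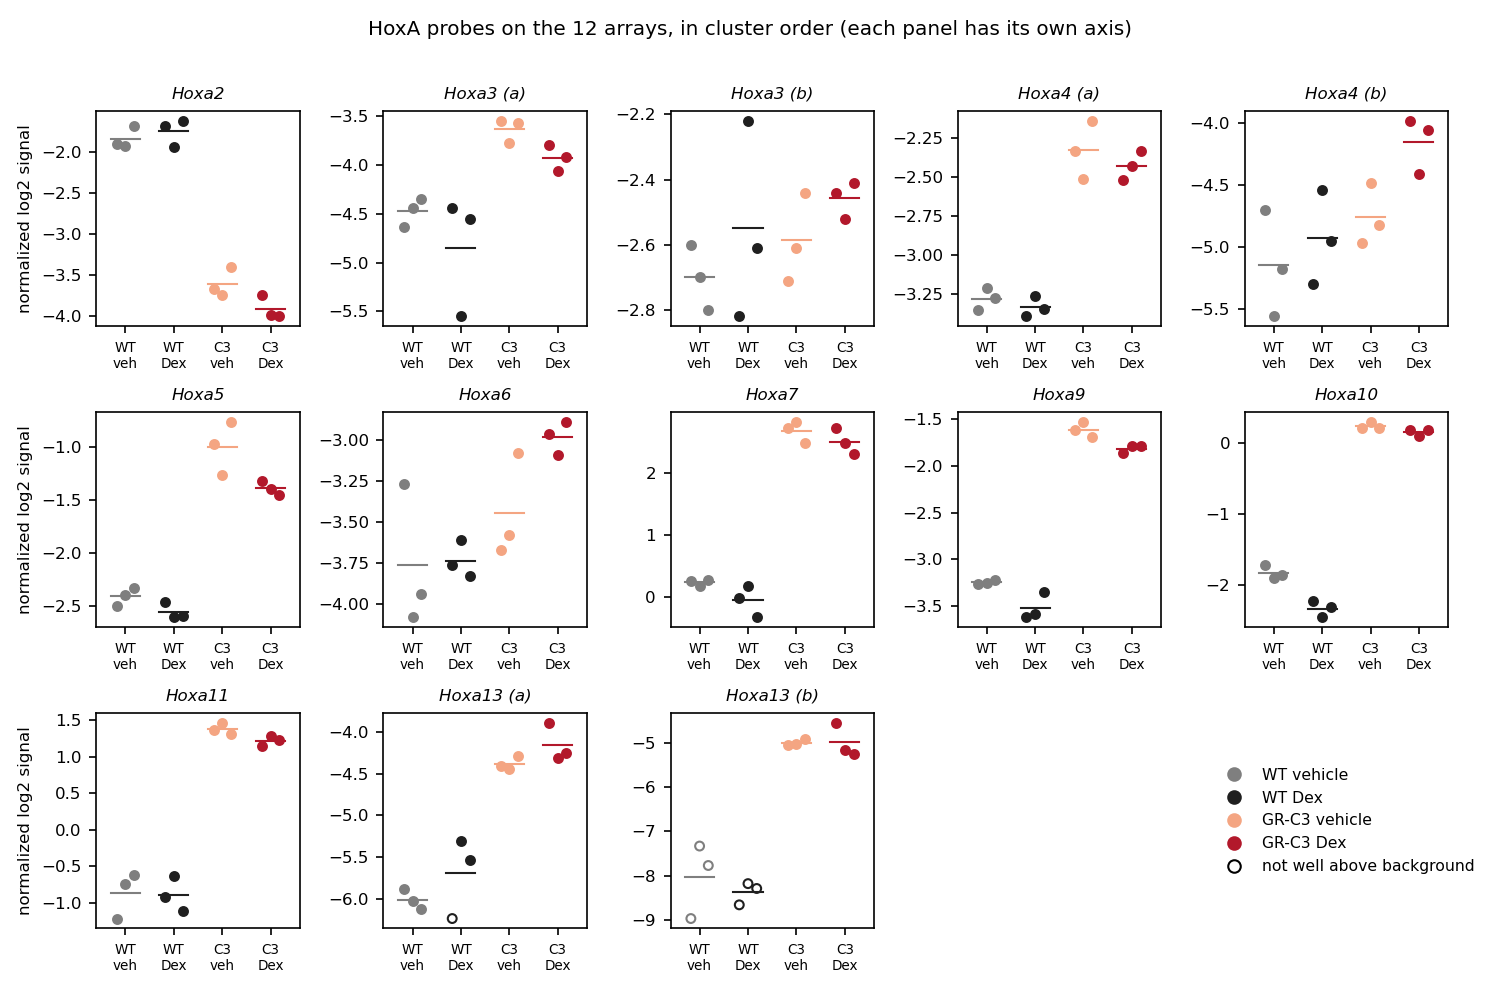
Level of each HoxA probe (log2, relative to the array's 75th percentile, 1 panel per probe with its own axis, in cluster order) on the 12 arrays of the 4 groups of 3; points are arrays, bars are group means, and open symbols are signals not well above background. The GR-C3 arrays lie above the WT arrays in most panels, Hoxa2 shows the opposite order, and Hoxa3 (b) shows no separation.

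At the anterior end, Hoxa2, which patterns the second pharyngeal arch and the hindbrain, went against the rest of the cluster. Its probe (A_51_P501803, chr6:52125851-52125910) lay at -1.90, -1.93 and -1.68 on the WT vehicle arrays and at -1.68, -1.94 and -1.62 on the WT Dex arrays. The GR-C3 vehicle arrays gave -3.67, -3.74 and -3.40 and the GR-C3 Dex arrays -3.74, -3.98 and -4.0. Every GR-C3 array was thus below every WT array, with treated and untreated arrays of a genotype close together. The fall was 3.4-fold under vehicle (-1.76 ± 0.14, adjusted p = 8.62e-06, limma) and 4.48-fold under Dex (-2.16 ± 0.14, adjusted p = 2.25e-06). The averaged difference of -1.96 ± 0.097 was -1.98 on 11 arrays.

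Hoxa3, which is needed for the thymus, the parathyroid and the throat cartilages, gave a different answer with each of its probes, which lie 666 bases apart. The brighter probe (b) (A_52_P447935, chr6:52133666-52133725) read -2.60, -2.70 and -2.80 in WT vehicle, -2.82, -2.22 and -2.61 in WT Dex, -2.71, -2.61 and -2.44 in GR-C3 vehicle, then -2.44, -2.52 and -2.41 in GR-C3 Dex. The genotypes overlapped, and the averaged difference of 0.10 ± 0.10 did not pass the test (adjusted p = 0.458). Probe (a) (A_51_P335169, chr6:52133000-52133059) read -4.64, -4.44 and -4.35, then -4.44, -5.55 and -4.55 in WT, and -3.55, -3.78 and -3.57, then -3.80, -4.06 and -3.92 in GR-C3. Here all GR-C3 arrays were above all WT arrays, by 0.88 ± 0.17 on average (1.84-fold, adjusted p = 0.002). Under vehicle the difference was 0.84 (adjusted p = 0.0289) with 12 arrays and 0.76 (adjusted p = 0.0676) without WT vehicle replicate 1, and it missed the threshold when any 1 of the 6 vehicle arrays was left out (adjusted p = 0.0504 to 0.082). Levels of the 2 probes correlated at r = -0.226 over the 12 arrays. In RefSeq the span of Hoxa3 contains Hoxa4, Hoxa5 and Hoxa6, so which transcript each Hoxa3 probe reads is uncertain.

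The central genes Hoxa4 to Hoxa7, which pattern the neck and thorax, were higher in GR-C3 by amounts that grew along the cluster except at Hoxa6. Hoxa4, a regulator of cervical vertebrae, was read by probe (a) (A_52_P443588, chr6:52153263-52153322) at -3.35, -3.21 and -3.27 in WT vehicle, -3.39, -3.26 and -3.34 in WT Dex, -2.33, -2.51 and -2.14 in GR-C3 vehicle, then -2.52, -2.43 and -2.33 in GR-C3 Dex. The genotypes were well separated at either treatment. The averaged rise was 0.93 ± 0.08 (1.9-fold, adjusted p = 6.88e-06). Probe (b), 799 bases away in the homeodomain sequence printed above, was dimmer and more scattered, at -5.56 to -4.54 over the WT arrays and -4.97 to -3.98 over the GR-C3 arrays. Those ranges overlap, and the averaged rise was 0.59 ± 0.17 (adjusted p = 0.0196). It was called under Dex (0.78, adjusted p = 0.0363) and not under vehicle (0.39, adjusted p = 0.282). The call under Dex was lost without WT Dex replicate 1 or 3 or GR-C3 Dex replicate 1 or 3 (adjusted p = 0.0965 to 0.121), and the averaged one without GR-C3 vehicle replicate 2 (adjusted p = 0.0505).

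Hoxa5, which is needed for lung and airway development, had a probe (A_51_P310821, chr6:52165365-52165424) at -2.50, -2.40 and -2.33 in WT vehicle, -2.46, -2.61 and -2.60 in WT Dex, -0.97, -1.26 and -0.76 in GR-C3 vehicle, then -1.32, -1.39 and -1.45 in GR-C3 Dex. GR-C3 was above WT on all arrays, and within GR-C3 the Dex arrays were the lower ones. The averaged rise was 1.29 ± 0.091 (2.45-fold, adjusted p = 1.45e-06). Hoxa6, a thoracic gene read by the hexapeptide probe printed above, lay at -3.27, -4.08 and -3.94 in WT vehicle, -3.76, -3.61 and -3.83 in WT Dex, -3.67, -3.58 and -3.08 in GR-C3 vehicle, then -2.96, -3.09 and -2.89 in GR-C3 Dex. Only the Dex groups were apart; under vehicle, WT vehicle replicate 1 lay above 2 of the GR-C3 arrays. The averaged rise was 0.54 ± 0.15 (1.45-fold, adjusted p = 0.0146). Under vehicle it was 0.32 ± 0.21 (adjusted p = 0.308) with 12 arrays and 0.56 (adjusted p = 0.0321) with 11. Under Dex it was 0.76 (adjusted p = 0.0223), and the call was lost without WT Dex replicate 1 or 3 or GR-C3 Dex replicate 1 or 3 (adjusted p = 0.0561 to 0.0762).

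Hoxa7, a thoracic gene, had the largest averaged difference among the members by the brighter probe of each gene. Its probe (A_51_P509263, chr6:52178996-52179055) read 0.27, 0.18 and 0.28 in WT vehicle and -0.01, 0.19 and -0.32 in WT Dex. In GR-C3 it read 2.72, 2.81 and 2.48 under vehicle and 2.71, 2.47 and 2.30 under Dex. The genotypes were separated by far more than the spread within any group, whose SD was 0.056 to 0.25 (n = 3). The rise was 5.36-fold under vehicle (2.42 ± 0.15, adjusted p = 2.25e-06) and 5.81-fold under Dex (2.54, adjusted p = 1.65e-06). Averaged, it was 2.48 ± 0.11 with 12 arrays and 2.49 with 11, and 0.472% of all probes had a larger averaged difference in either direction.

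The posterior genes Hoxa9 to Hoxa13, which pattern the lumbar axis, the limb and the urogenital tract, were all higher in GR-C3. Hoxa9, which acts in blood stem cells as well as in the axis, was read at -3.26, -3.25 and -3.22 in WT vehicle, -3.62, -3.58 and -3.35 in WT Dex, -1.61, -1.53 and -1.69 in GR-C3 vehicle, then -1.86, -1.79 and -1.79 in GR-C3 Dex. The 4 groups did not overlap one another. The averaged rise was 1.67 ± 0.071 (3.18-fold, adjusted p = 4.58e-08). The probe lies in homeodomain sequence, and the part of paralogous transcripts in its signal was not tested.

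Hoxa10, which patterns the lumbar vertebrae and the uterus, had its probe (A_51_P466285, chr6:52195026-52195085) at -1.71, -1.90 and -1.85 in WT vehicle and -2.22, -2.45 and -2.31 in WT Dex. The GR-C3 vehicle arrays gave 0.21, 0.29 and 0.21, and the GR-C3 Dex arrays 0.18, 0.09 and 0.18. Again no group overlapped another, and the step between genotypes was several times the step between treatments. The rise in GR-C3 was 4.16-fold under vehicle (2.06 ± 0.099, adjusted p = 4.32e-07) and 5.58-fold under Dex (2.48, adjusted p = 1.31e-07). The averaged difference was 2.27 ± 0.07, or 4.82-fold, with 12 arrays and 2.30 with 11.

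Hoxa11, which shapes the forearm and lower leg, had its probe (A_51_P102911, chr6:52205477-52205536) at -1.22, -0.75 and -0.62 in WT vehicle, -0.93, -0.64 and -1.12 in WT Dex, 1.37, 1.46 and 1.31 in GR-C3 vehicle, then 1.14, 1.28 and 1.23 in GR-C3 Dex. WT arrays were spread more widely than GR-C3 arrays, without overlap between genotypes. The averaged rise was 2.18 ± 0.12 (4.52-fold, adjusted p = 1.85e-07), and 2.09 with 11 arrays.

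Hoxa13, the gene of the digits and the hindgut end, was dim in WT. Its brighter probe (a) (A_51_P303316, chr6:52222226-52222285) lay at -5.89, -6.03 and -6.13 in WT vehicle and -6.24, -5.31 and -5.53 in WT Dex, the first of these not well above background. In GR-C3 it lay at -4.41, -4.44 and -4.28 under vehicle and -3.89, -4.31 and -4.25 under Dex, above every WT array. The averaged rise was 1.59 ± 0.15 (3.02-fold, adjusted p = 1.21e-05). It was smaller with slide as a fixed block (0.98, adjusted p = 0.0175) and with normexp on repaired local backgrounds (0.66, adjusted p = 0.000701). With those repaired backgrounds probe (b) had 0.69. Probe (b), 159 bases away, was not well above background on any WT array and lay at -5.24 to -4.55 over the GR-C3 arrays. It was at least 3.6-fold higher in GR-C3 under vehicle (at least 3.71-fold without WT vehicle replicate 1). Under Dex it was at least 2.79-fold higher. Probe (b) passed the filter through the GR-C3 arrays alone, which favours a rise, so no p-value of its genotype difference is given. For these bounds each WT array was given its lowest signal well above background, or the probe's own signal where that was brighter. The levels of both probes correlated at r = 0.925 over the 12 arrays.

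No HoxA probe passed the test for Dex in either genotype on 12 arrays. In WT, 0 of 13 were called (0.0485% of all probes), with 2 at an unadjusted p under 0.05 in limma (16.7% of all probes). In GR-C3, 0 of 13 were called (0.11% of all probes), with 3 at an unadjusted p under 0.05 (11% of all probes). Over the 13 probes the 95% intervals of the Dex difference ran from -1.11 to 0.78 in WT and from -0.82 to 1.15 in GR-C3, so for some members they reached 2-fold. The median Dex difference was -0.05 in WT and -0.10 in GR-C3, against -0.01 and 0.01 over all probes.

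Without WT vehicle replicate 1, 2 of the 13 probes were called in WT, both lower, where 11.3% of all probes were called and 6.34% called lower. One was Hoxa10, for which all 3 WT Dex arrays lay below all WT vehicle arrays. Its Dex difference was -0.51 ± 0.099 (95% interval -0.73 to -0.29, adjusted p = 0.0808) with 12 arrays and -0.46 ± 0.095 (-0.67 to -0.24, adjusted p = 0.0132) with 11. Within slide 2, the 1 slide holding WT arrays of both treatments, it was -0.35, with no test, and with slide as a fixed block it was -0.35 ± 0.11 (adjusted p = 0.171). With normexp it read 0.71, where the median of all probes was 0.81. The other was Hoxa13 (b) at -0.82 (adjusted p = 0.0419), whose signals were not well above background in either WT group, so that no fold is given.

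In GR-C3, 0 of 13 probes were called for Dex on 11 arrays (2.93% of all probes), with 4 at an unadjusted p under 0.05 (17% of all probes). The Dex difference of Hoxa10 in GR-C3 was -0.09 ± 0.099 (95% interval -0.31 to 0.13). Hoxa5 had -0.39 ± 0.13 (adjusted p = 0.293), and all 3 of its Dex arrays lay below the vehicle arrays. Hoxa4 (b) pointed the other way at 0.61 ± 0.25 (adjusted p = 0.402). Dex and vehicle groups did not overlap for 6 of the 13 probes in GR-C3 (27.5% of all probes) and for 2, Hoxa9 and Hoxa10, in WT (15.7% of all probes).

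No HoxA probe passed the interaction test, which asks whether the Dex difference was the same in both genotypes. With 12 arrays 0 of 13 were called (0% of all probes), with 1 at an unadjusted p under 0.05 (6.16% of all probes). With 11 arrays 0 were called (0.886% of all probes), with 2 at an unadjusted p under 0.05 (14.3% of all probes). Hoxa10 had an interaction of 0.42 ± 0.14 (adjusted p = 0.701) with 12 arrays and 0.37 (adjusted p = 0.234) with 11, so its Dex fall in WT was not shown to differ from its Dex value in GR-C3.

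**Figure D2:**
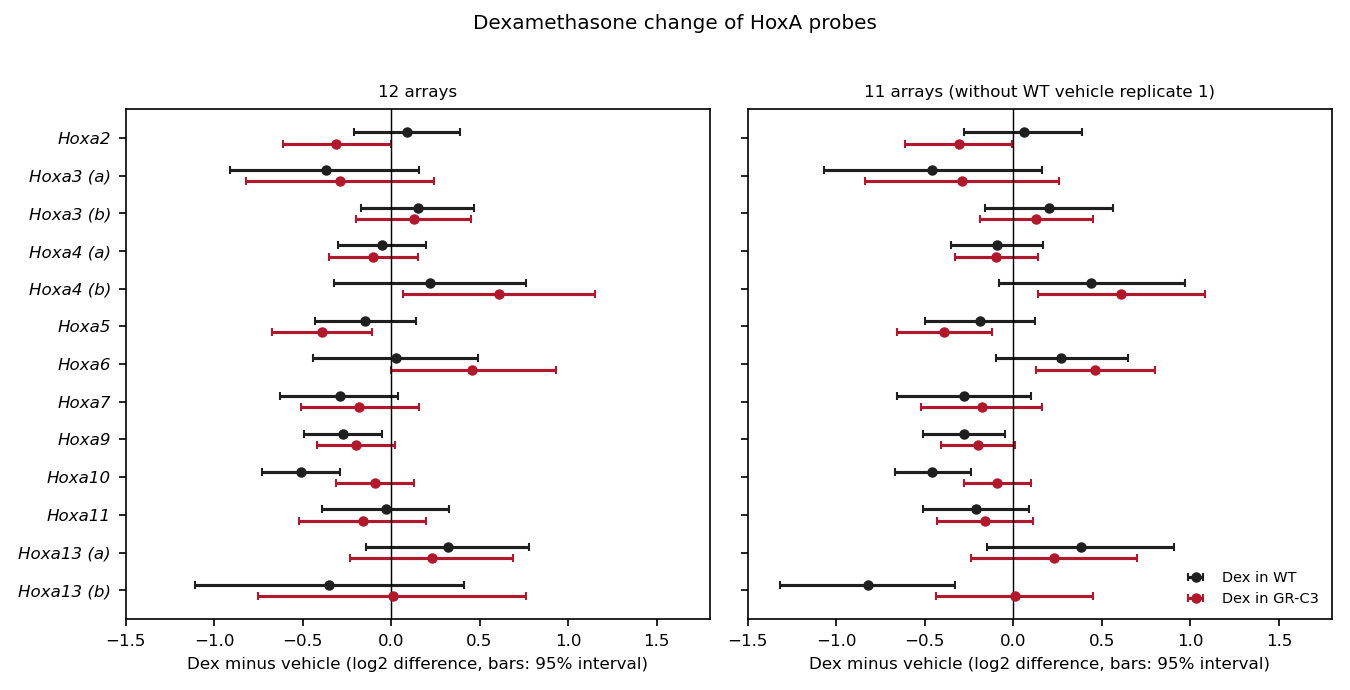
Dex minus vehicle difference (log2) of each HoxA probe in WT and GR-C3, with 95% intervals from the fit on 12 arrays and on the 11 arrays without WT vehicle replicate 1. Most intervals include 0; Hoxa10 in WT lies at -0.51 with 12 arrays and -0.46 with 11.

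By the brighter probe of each gene, the genotype difference was lower before Hoxa7 than from Hoxa7 on, where it rose no further. It passed from -1.96 at Hoxa2 through 0.10 at Hoxa3 (b), 0.93 at Hoxa4, 1.29 at Hoxa5 and 0.54 at Hoxa6 to 2.48 at Hoxa7. From Hoxa9 to Hoxa13 it stayed at 1.59 to 2.27. The steepest step between neighbours after Hoxa2 and Hoxa3 lay between Hoxa6 and Hoxa7. Over the 10 genes Spearman's coefficient between position and averaged difference was 0.758, and Pearson's r was 0.79. Spearman's coefficient was 0.667 without Hoxa2, 0.806 under vehicle alone and 0.758 under Dex alone. The points share the same 12 arrays, and genes are not independent replicates. For the Dex difference it was -0.188 in WT and 0.285 in GR-C3.

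**Figure D3:**
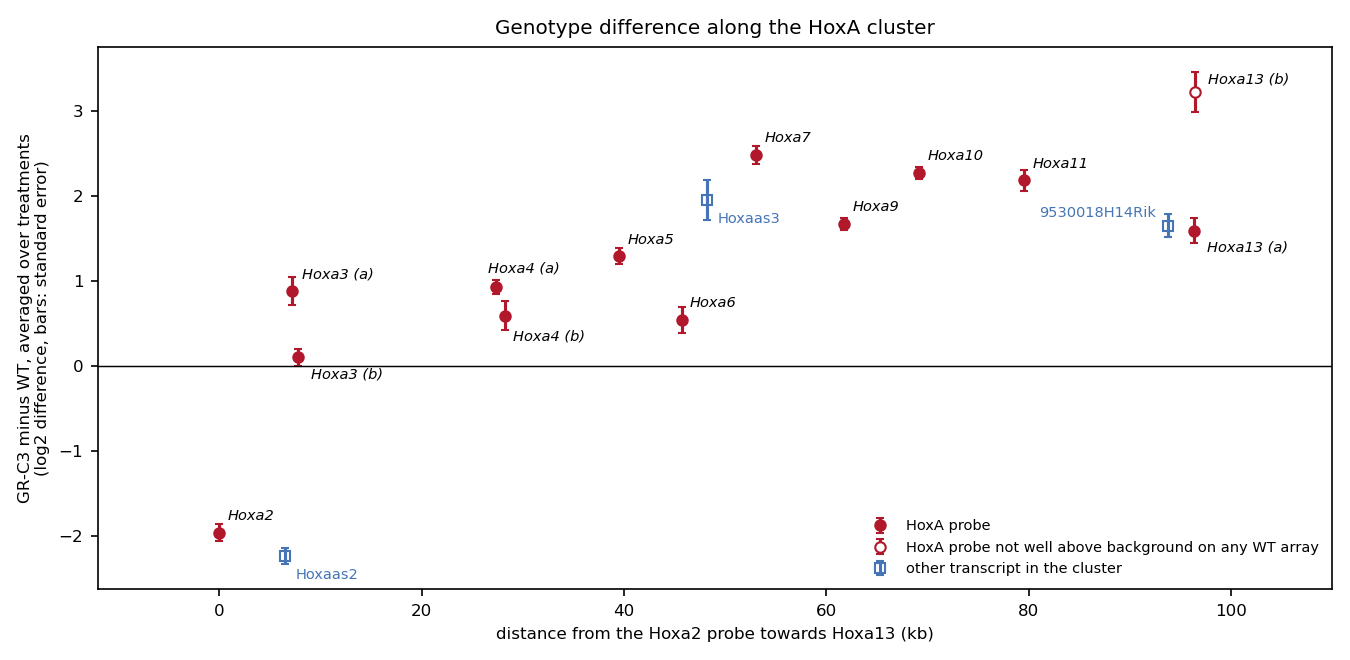
Averaged genotype difference (GR-C3 minus WT, log2, ± SE) of the 13 HoxA probes against distance from the Hoxa2 probe in kb; open squares are other transcripts of the region, and the open circle is Hoxa13 (b), not well above background on any WT array. Values go from -1.96 at Hoxa2 to 1.59 or more from Hoxa7 onward, with Hoxa6 at 0.54 between Hoxa5 and Hoxa7.

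Levels of most members ran in parallel over the 12 arrays, but not those of Hoxa3 and Hoxa6. Hoxa9 and Hoxa10 correlated at r = 0.992, Hoxa7 and Hoxa10 at 0.988, and Hoxa2 and Hoxa7 at -0.975. Hoxa3, by its brighter probe, had r of 0.192 to 0.606 with the members other than Hoxa2 and -0.349 with Hoxa2, and Hoxa6 had 0.589 to 0.748 with those other than Hoxa2 and Hoxa3. After each group's mean was removed, those first pairs had r of 0.0358, -0.0557 and -0.305. Over all pairs the values then ran from -0.668 (Hoxa10 and Hoxa11) to 0.812 (Hoxa3 and Hoxa13). The points share arrays and groups.

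Other transcripts of the region showed the same change of sign along the cluster. Hoxaas2, a non-coding transcript read on the plus strand between Hoxa2 and Hoxa3, lay at -1.66, -1.54 and -1.35 in WT vehicle, -1.69, -2.11 and -2.04 in WT Dex, -4.03, -3.94 and -3.79 in GR-C3 vehicle, then -4.0, -4.11 and -3.96 in GR-C3 Dex. Its genotypes did not overlap and differed in the direction of Hoxa2, by -2.24 ± 0.095 (adjusted p = 4.38e-08). Hoxaas3, whose probe lies on the strand of the Hox genes between Hoxa6 and Hoxa7, lay at -5.88, -5.75 and -5.14 in WT vehicle and at -4.16, -3.88 and -4.34 in GR-C3 vehicle. It was higher in GR-C3 under vehicle by 1.46 ± 0.34 (adjusted p = 0.0104). Under Dex it was not well above background on any WT array and at least 3.65-fold higher in GR-C3. Because its probe has the strand of the Hox genes, which transcript it reads is uncertain. The transcript 9530018H14Rik, 93.8 kb from Hoxa2 and close to Hoxa13, was at least 2.82-fold higher in GR-C3 under Dex. It too passed the filter through GR-C3 arrays alone, so no p-value is given. Evx1, beyond Hoxa13, did not pass the test (0.25, adjusted p = 0.427). Among genes flanking the cluster, Jazf1 (-0.78, adjusted p = 1.63e-05) and Snx10 (-0.58, adjusted p = 0.00102) were lower.

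The upstream windows of the genes, from 250 bases before to 50 bases after a RefSeq transcript start in GRCm38.p6, were searched on both strands for TGATNNAT, a form of the Hox-Pbx site. It was found in 1 of the 10 HoxA windows, which stood for 9 genes, and in 8.85% of 32851 windows of that length. The match was in Hoxa2, at chr6:52164924-52164953 of GRCm38.p6 on the minus strand, with the bases of the match, read on the other strand, in capitals: gacttttttggATCAATCAaacagacagtg. The palindromic glucocorticoid receptor site was in 0 of the 10 windows and in 0.00913% of all. A match is a description of these letters only.

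Paralogs, the genes in the same place of the HoxB, HoxC and HoxD clusters, were mostly higher in GR-C3 as well. Of 24 tested, 21 were higher and 0 lower by the averaged difference, with 12 arrays and with 11, while 42.8% of all genes were called, 26.7% higher and 16.1% lower. By cluster this was 9 of 9 for HoxB, 5 of 7 for HoxC and 7 of 8 for HoxD. Hoxb8 and Hoxd11, among the 21, passed the filter through GR-C3 arrays alone, so the filter favoured their rise. Hoxb2, the paralog of Hoxa2, moved the opposite way: it rose by 1.78 (adjusted p = 4.15e-06), from -0.68 ± 0.52 in WT vehicle to 1.06 ± 0.038 in GR-C3 vehicle (SD, n = 3).

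Among the paralogs of Hoxa3, Hoxb3 was higher (1.07) and Hoxd3 was not called (-0.20, not well above background and so dim on 2 of 3 GR-C3 Dex arrays). For Hoxa4 the values were 1.17 for Hoxb4 and 1.75 for Hoxd4, with Hoxc4 not called at 0.20. The paralogs of Hoxa5 gave 1.63 (Hoxb5) and 1.43 (Hoxc5). Hoxa6 stood lowest of its group, at 0.54 against 2.24 for Hoxb6 and 2.19 for Hoxc6, although these differences between genes were not tested. Hoxb7 at 2.17 lay near Hoxa7. The HoxA cluster has no gene of group 8, whose members Hoxc8 (dim on 2 of 3 WT Dex arrays) and Hoxd8 were higher by 2.69 and 1.64. Hoxb8, not well above background in WT Dex, was at least 3.01-fold higher under Dex. Under vehicle its fitted difference of 2.49 rested on WT vehicle replicate 1, the 1 WT vehicle array on which it was well above background. Without that array Hoxb8 was at least 6.01-fold higher in GR-C3.

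In the posterior groups, the paralogs of Hoxa9 rose by 2.50 (Hoxb9), 2.30 (Hoxc9) and 1.77 (Hoxd9), and those of Hoxa10 by 1.37 (Hoxc10) and 2.61 (Hoxd10). Hoxd11 was not well above background in WT and was at least 7.48-fold higher in GR-C3 under vehicle and at least 5.74-fold under Dex. The group of Hoxa13 was the most uneven. Hoxd13, which acts with Hoxa13 in the digits, rose by 5.75 ± 0.15 (53.8-fold, adjusted p = 1.92e-09), from -5.08 ± 0.31 in WT vehicle to 0.74 ± 0.082 in GR-C3 vehicle. Hoxb13, well above background on 2 of 3 WT vehicle arrays, rose by 1.58, Hoxd12, of a group that HoxA lacks, by 0.44, and Hoxc13 was not called (-0.10). Of the 8 limb bud markers, 7 were higher in GR-C3, where 26.7% of all genes were. Tbx4, counted among the 7, passed the filter through GR-C3 arrays alone, so the filter favoured its rise. Among the 7 were Pitx1 (1.61), Tbx5 (1.08) and Lhx9 (2.63), and Hand2 was lower (-0.87, adjusted p = 0.00986).

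**Figure D4:**
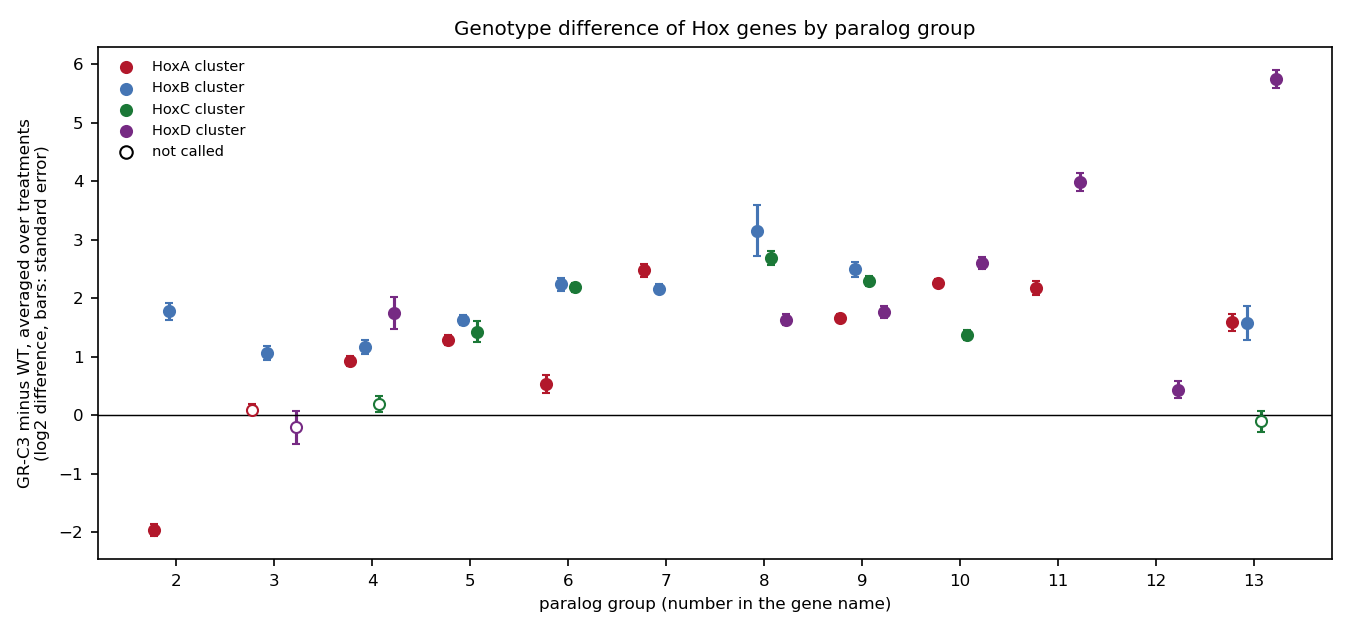
Averaged genotype difference (GR-C3 minus WT, log2, ± SE) of the genes of the 4 Hox clusters by paralog group, each by its brighter probe; filled symbols were called and open symbols were not, and Hoxd11 was not well above background in WT, nor Hoxb8 in WT Dex and on 2 of 3 WT vehicle arrays. Hoxa2 is the 1 called gene below 0, at -1.96, and Hoxd13 is the highest at 5.75.

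For Dex, 0 of the 24 genes of the other clusters were called by limma in either genotype with 12 arrays, with 11 at an unadjusted p under 0.05 in WT and 5 in GR-C3 (16.7% and 11% of all probes). With 11 arrays 10 were called in WT and 3 in GR-C3 (11.3% and 2.93% of all probes). Of the 9 HoxB genes tested, 6 were then lower under Dex in WT and 3 in GR-C3, so the HoxB counts moved with the same array as the call of Hoxa10.

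The genes that act with Hox proteins or on Hox genes were mixed. Their counts by the averaged difference stand against 26.7% of all genes called higher and 16.1% called lower. Of 9 TALE cofactors, 1 was higher and 5 lower in GR-C3. Meis1, a cofactor of Hoxa9, fell by 1.57 ± 0.10 (adjusted p = 8.79e-07), from -0.59 in WT vehicle to -1.97 in GR-C3 vehicle. Pbx3 (-0.96) and Meis2 (-0.82) were lower too, and Pknox1, a Prep family gene, was higher (0.56).

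Of 15 Polycomb genes, 4 were higher and 4 lower, where 26.7% of all genes were higher and 16.1% lower. Cbx7 (-1.28 ± 0.13, adjusted p = 2.26e-05), a reader of the repressive H3K27 methyl mark, and Ezh1 (-0.98), a writer of it, were lower, and the other writer Ezh2 (0.57) and its partner Suz12 (0.57) were higher. Of 9 trithorax, H3K27 demethylase and H3K79 methyltransferase genes, 3 were higher and 0 lower, where 42.8% of all genes were called, 26.7% higher. These were Dot1l, the H3K79 methyltransferase (0.86 ± 0.087, adjusted p = 2.36e-05), Ash2l (0.39) and Wdr5 (0.22).

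Of 16 retinoic acid pathway genes, 7 were higher and 5 lower, against 26.7% and 16.1% of all genes. Enzymes that make retinoic acid went in opposite directions: Aldh1a2 rose by 2.55 ± 0.12 (5.86-fold, adjusted p = 7.42e-08) and Aldh1a3 by 1.94 ± 0.18, while Aldh1a1 fell by 2.39 ± 0.13 (5.26-fold, adjusted p = 2.67e-07). The receptor Rarb, itself induced by retinoic acid, rose by 1.64 ± 0.12 (adjusted p = 1.82e-06). Of 6 axial Hox activators tested, Egr2, a hindbrain activator of Hoxa2, was higher (1.19 ± 0.12, adjusted p = 2.6e-05) while Hoxa2 was lower, and Tbx6, of the paraxial mesoderm, was lower (-1.12 ± 0.16, adjusted p = 0.000222). Of 7 genes described as Hoxa targets, 1 was higher (Bmp7, 0.67) and 3 lower: Itga8 (-1.39, adjusted p = 7.2e-07) and Six2 (-1.28, adjusted p = 2.07e-06), both of the developing kidney and mesenchyme, and Bmp2 (-0.58). Of the 62 genes of these lists tested, 0 were called for Dex by limma in either genotype with 12 arrays, with 15 at an unadjusted p under 0.05 in WT and 10 in GR-C3 (16.7% and 11% of all probes). With 11 arrays 12 were called in WT and 5 in GR-C3 (11.3% and 2.93% of all probes).

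**Figure D5:**
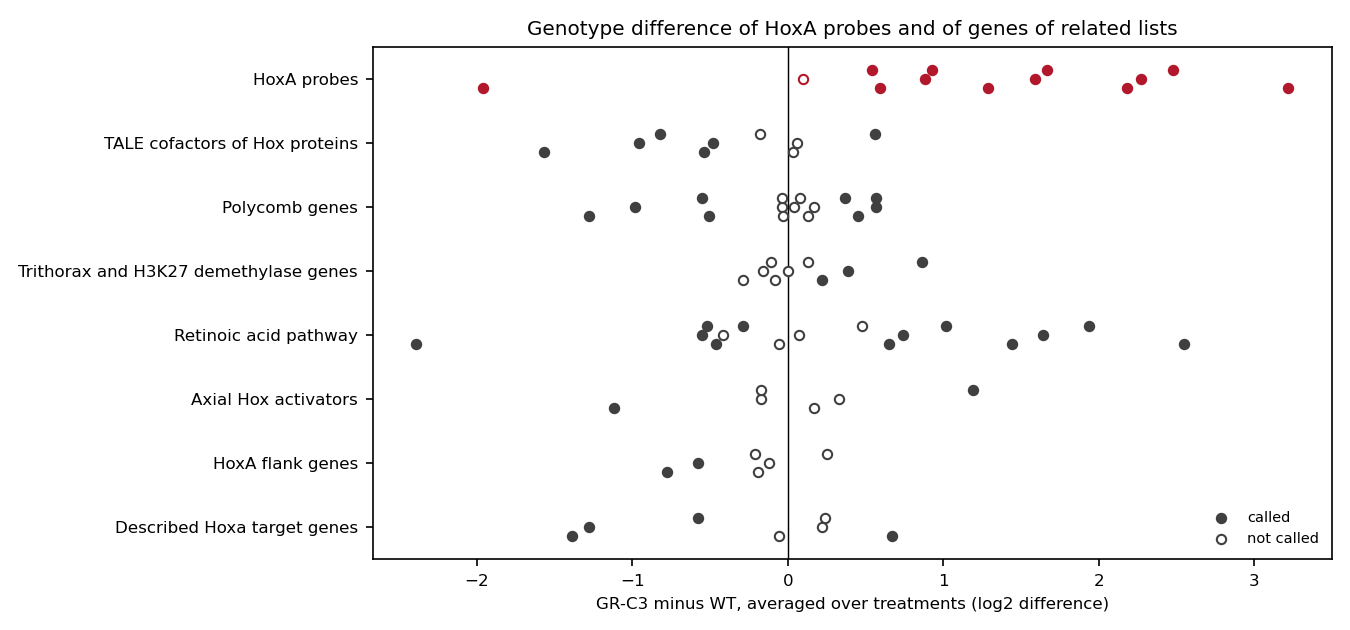
Averaged genotype difference (GR-C3 minus WT, log2) of each HoxA probe and of the tested genes reported here in the lists of cofactors, chromatin regulators, retinoic acid genes, axial activators, flanking genes and described targets; filled symbols were called. The HoxA probes lie above 0 except Hoxa2, and the lists spread around it, with Aldh1a2 at 2.55 and Aldh1a1 at -2.39.

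The genes most like Hoxa7, the member with the largest averaged difference by its brighter probe, among 16042 genes over the 12 arrays were Lmnb1, a nuclear lamin, at r = 0.9952, Pitx1 at 0.9941, Ecscr at 0.9936, Cfap299 at 0.9932 and Hoxc9 at 0.9924. Over 11 arrays they were Lmnb1 (0.9963), Cfap299 (0.9958), Hoxa11 (0.995), Ptbp3 (0.995) and Pitx1 (0.9944). Lmnb1 followed the pattern at a smaller step, with group means of 0.88 in WT vehicle, 0.67 in WT Dex, 1.72 in GR-C3 vehicle and 1.66 in GR-C3 Dex. These r values include the genotype step for which Hoxa7 was picked, and 42.8% of all genes were called by the averaged difference. Likeness to Hoxa7 within the groups was not tested for these genes.

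The slides could not separate genotype within a treatment, because no slide held both genotypes under the same one. Slide 3 held 2 GR-C3 vehicle and 2 WT Dex arrays, and there GR-C3 minus WT was -1.92 for Hoxa2, 0.09 for Hoxa6, 2.83 for Hoxa7, 1.89 for Hoxa9, 2.63 for Hoxa10, 2.29 for Hoxa11 and 1.0 for Hoxa13 (a). That contrast mixes genotype with Dex and carries no test; these values had the sign of the averaged difference, while Hoxa3 (b), not called in any comparison, had -0.25. With slide as a fixed block, 8, 9 and 9 HoxA probes were called under vehicle, under Dex and averaged, of 2073, 4418 and 4935 probes called in all. The averaged differences of Hoxa3 (a) (1.18, adjusted p = 0.0718), Hoxa4 (b) (0.40, adjusted p = 0.44) and Hoxa6 (0.26, adjusted p = 0.293) then missed the threshold. Those of Hoxa2 (-2.11, adjusted p = 0.000916), Hoxa7 (2.71, adjusted p = 0.000811) and Hoxa10 (2.43, adjusted p = 8.52e-05) did not.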

How the data were processed

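RNA of 12 MEF samples was hybridised to one-colour Agilent arrays, 4 groups of 3, grouped by their labels. The deposited files hold linear spot intensity. Per the file headers, Agilent Feature Extraction 9.5.3.1 made the background-subtracted processed signal and gave probe positions in mm7. The submitters' processing notes name Feature Extraction 9.5. Control spots and outlier spots were left out and spots of a probe averaged. The log2 of the authors' processed intensity minus the array's 75th percentile (a signal of 884 to 1821) was the level. Kept were the 30932 probes that every array of some group showed well above background, leaving out 10242, and 70.7 to 78.4% of probes per array were well above background. The number of arrays limits the precision. Probes were named through RefSeq by accession (23082), symbol (6582) or synonym (3073), and 8437 kept the file's name.

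The groups were fitted in limma 3.58.1 (R 4.3.3), with 1 coefficient per group over 12 arrays, for 6 comparisons; a fit on 11 arrays left out WT vehicle replicate 1. The pipeline was tested on simulated data. Of a gene's probes the one with the highest mean stands for it. From each list up to 4 called genes of smallest p are named; paralogs of called HoxA genes and 5 genes most correlated with Hoxa7 are named too. Pitx1, Tbx5, Tbx4, Lhx9 and Hand2 beside the paralogs, the single cell type markers, and Ddx3y, Kdm5d, Eif2s3y and Xist, come from marker lists. The replicate numbers did not pair the samples: 4 of 18 same-numbered pairs had a correlation of deviations over 0.1 (-0.228 to 0.197). The labels call the samples biological replicates without naming separate embryos or cultures, so p-values measure only the spread between these samples. Permutation of 3 against 3 arrays gives no p below 0.1. The members and lists were chosen with earlier results of these data known. Hotairm1, Hottip and Hoxa11os were not analysed here. Alternatives were other normalizations, filters, blocks and left-out replicates. Some items are not reported here.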

Additional observations from a re-analysis of the deposited data

How the results depend on the processing

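The counts of called HoxA probes kept their side of the threshold, within 1.5 times, under quantile normalization, other filters, slide blocks, 2-group fits, 1 probe per gene and normexp with repaired local backgrounds. With normexp on the deposited local backgrounds, 3, 2 and 4 probes were called for genotype under vehicle, under Dex and averaged, among 365, 364 and 2000 probes in all against 7220, 8569 and 12839. Under it the values with changed sign were, for Dex in WT, 0.71 for Hoxa10 and 2.49 for Hoxa13 (b); for genotype under Dex, -0.83 for Hoxa3 (a), -0.40 for Hoxa4 (a), -0.76 for Hoxa4 (b), -0.63 for Hoxa6, -0.69 for Hoxa13 (a) and -0.76 for Hoxa13 (b); and averaged, -0.04 for Hoxa6. The median of all probes was then 0.81 for Dex in WT and -0.53 for genotype under Dex, and the cause was not tested. With repaired backgrounds, Hoxa13 (b) under Dex in WT was 0.33. With slide as a fixed block 1253 and 424 probes in all were called for Dex in WT and in GR-C3, against 15 and 34, and 2073, 4418 and 4935 for the genotype comparisons; a fit of the 2 groups alone called 773 for Dex in GR-C3. Leaving out 1 array gave 0 to 2 called for Dex in WT, 2 without WT vehicle replicate 1. Quantile normalization changed the share of all-probe calls that were higher from 46.7 to 57.1% for Dex in WT and from 82.4 to 39.0% (136 calls against 34) for Dex in GR-C3, and normexp from 55.9 to 40.0% for genotype under vehicle.

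Of the 12 averaged differences called, 9 kept their call in every alternative run but normexp on the deposited backgrounds. Hoxa3 (a), Hoxa4 (b) and Hoxa6 did not. Among those 9 the size still moved for Hoxa13, to 0.66 for (a) and 0.69 for (b) with repaired backgrounds. Of 786 values of single probes under an alternative, 717 kept their direction and side, 56 lost the call, 3 gained it and 10 changed sign.

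With the replicate number as a block, 0, 0, 10, 11, 12 and 0 HoxA probes were called for Dex in WT, Dex in GR-C3, genotype under vehicle, under Dex, averaged and the interaction. Numbers did not pair the samples.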
